A study of Mus musculus with 20 samples.

Results

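The 35 genes described here make cholesterol and fatty acids, control that synthesis, or move cholesterol through and out of the cell. They were chosen by name, with earlier results of these data known, and all 35 were found among the 47729 genes of the count tables. Of these members 18 are enzymes of the sterol pathway: 7 from acetyl-CoA to farnesyl diphosphate, 3 that make squalene and lanosterol, and 8 from lanosterol to cholesterol. The rest are 4 regulators (Srebf1, Srebf2, Insig1 and Scap), 2 sterol transport proteins (Stard4 and Npc1), 7 fatty acid enzymes, the phosphatidate phosphatase Lpin1, and 3 targets of the liver X receptors (LXR), namely the efflux transporters Abca1 and Abcg1 and the ubiquitin ligase Mylip. All 35 members passed the filter on low counts that kept 14820 genes for testing.

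Animal cells make cholesterol from acetyl-CoA through mevalonate, farnesyl diphosphate, squalene and lanosterol. When sterols in the endoplasmic reticulum run low, the escort protein SCAP carries the transcription factors SREBP1 and SREBP2, encoded by Srebf1 and Srebf2, to the Golgi, where proteases free the part that enters the nucleus. When sterols are plentiful, INSIG proteins hold the complex back, and oxysterols (oxidised forms of cholesterol) also activate LXR, which induces the efflux transporters. SREBP2 is best known for the genes of sterol synthesis and SREBP1 for those of fatty acid synthesis.

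RNA with poly(A) tails was sequenced from colon fibroblasts of C57BL6/J mice, grown flat on plastic in Advanced DMEM F12 with 10% FBS. The 5 groups held 4 libraries each: untreated fibroblasts (titled wild-type), fibroblasts given APTK organoid medium for 24 h, fibroblasts given APTKA organoid medium for 24 h, and both media again from an arm labelled irradiated with 5 fractions of 2 Gy. The labels do not expand the organoid names, and they do not say whether organoids or fibroblasts were irradiated. There was no irradiated untreated group and no group given medium that organoids had not conditioned. Each library is named by its group and its numeral in the labels (I to IV). Whether the 4 libraries of a group are separate cultures is not stated, so the p-values cover only how far these libraries vary, which could be technical variation.

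Library totals were 17.3 to 31.6 M counts, the 2 smallest being irradiated APTK I and II, and mitochondrial genes took 0.404% to 1.23% of the counts. That share differed between groups and was highest and most uneven in irradiated APTK I to IV, at 1.21%, 1.23%, 0.534% and 1.01%. It was 0.765% to 0.922% with plain APTK medium, 0.404% to 0.598% with plain APTKA medium and 0.538% to 0.671% in untreated libraries. Irradiated APTKA libraries had 0.442% to 0.586%. The label of fibroblasts was checked against markers, in CPM (counts per M counts of the library). The marker CPM use unscaled totals, and CPM elsewhere use scaled totals. All 10 fibroblast markers were detected in every group. The epithelial markers Epcam and Krt19 stayed at or below 0.112 and 1.61 CPM. The leukocyte marker Ptprc stayed at or below 0.19 CPM, and the macrophage and monocyte marker Lyz2 at or below 6.62 CPM. Not all markers of other cells were low. All 7 pericyte and smooth muscle markers passed the filter, with Myh11 at 208 to 380 CPM. Tubb3, from the glia and neuron markers, was at 28.5 to 125 CPM. The summed fibroblast markers were 53300 to 60700 CPM in untreated libraries and 30900 to 35100 CPM with APTKA medium. Of 7 adipocyte markers 2 (Pparg and Fabp4) passed the filter. Adipoq was at most 0.0632 CPM and Lep was at 0 in every library, and the summed adipocyte markers were 14 to 17.2 CPM in untreated libraries and 10.5 to 11.7 CPM with APTKA medium. Fewer cells of a kind and less RNA of a gene per cell cannot be told apart in such bulk libraries, and the part of these marker shifts in the results that follow was not tested.

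The stretches of DNA just upstream of the genes show sequence features that the choice of members did not use. RefSeq promoter windows (GRCm38.p6, the build of mm10) were on hand for 26 of the 35 members, and the 250 bases before each start were searched on both strands. The window of a sterol enzyme from each end of the pathway, that of the fatty acid synthase gene Fasn and that of the efflux gene Abca1 are shown to set the 3 classes side by side. Capitals mark matches to the sterol regulatory element TCACNCCAC, at which SREBPs bind, or to CCAAT, the box of the factor NF-Y; each line runs 5′ to 3′ on the gene's own strand.
Hmgcs1 (chr13:119690101-119690350, plus strand): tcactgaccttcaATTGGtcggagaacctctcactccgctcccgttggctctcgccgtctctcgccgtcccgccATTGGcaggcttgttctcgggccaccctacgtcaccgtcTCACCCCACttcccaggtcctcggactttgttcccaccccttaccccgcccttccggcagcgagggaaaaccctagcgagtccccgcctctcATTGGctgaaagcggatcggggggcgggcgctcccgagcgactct
Sc5d (chr9:42264301-42264550, minus strand): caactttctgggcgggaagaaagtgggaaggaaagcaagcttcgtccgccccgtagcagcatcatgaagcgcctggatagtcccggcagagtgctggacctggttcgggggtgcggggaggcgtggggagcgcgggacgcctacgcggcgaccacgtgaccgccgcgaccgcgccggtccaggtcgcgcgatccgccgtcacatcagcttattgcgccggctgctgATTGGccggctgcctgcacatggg
Fasn (chr11:120824548-120824797, minus strand): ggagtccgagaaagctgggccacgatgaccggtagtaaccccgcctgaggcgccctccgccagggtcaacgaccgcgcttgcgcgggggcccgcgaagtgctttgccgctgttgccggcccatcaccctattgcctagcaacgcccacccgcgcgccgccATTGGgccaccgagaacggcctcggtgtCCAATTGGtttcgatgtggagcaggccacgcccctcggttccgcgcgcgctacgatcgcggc
Abca1 (chr4:53159896-53160145, minus strand): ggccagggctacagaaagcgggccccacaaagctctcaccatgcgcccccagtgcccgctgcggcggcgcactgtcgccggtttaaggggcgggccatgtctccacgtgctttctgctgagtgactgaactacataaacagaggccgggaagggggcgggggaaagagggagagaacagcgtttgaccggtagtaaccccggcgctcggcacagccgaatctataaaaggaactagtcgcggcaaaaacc

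Of the 26 members with a window, Hmgcs1 was the only one with the sterol element, as TCACCCCAC at -137 to -129 from its start, beside 3 CCAAT boxes. That element occurred in 1.05% of the 32851 windows of the table. The CCAAT box stood in 14 of the 15 sterol enzyme genes with a window, in 1 of 4 fatty acid enzyme genes (Fasn) and not in Abca1. Counted by window it was in 77.8% of those of the sterol enzymes, 62.5% of those of all members and 33.8% of all windows. In Fasn the boxes at -62 to -58 and -59 to -55 lie on opposite strands and overlap. The LXR direct repeat (AGGTCA, 4 bases, AGGTCA) was in no member's window and in 0.0152% of all windows. These are matches of letters in a short window and do not show binding.

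Levels of the members per kilobase of exon in untreated fibroblasts spanned a wide range. Scd2, a stearoyl-CoA desaturase, was the highest at 95 RPKM (CPM divided by kilobases of exon), and Hmgcs1, which makes the HMG-CoA that enters the mevalonate pathway, was at 34.8 RPKM. Idi1, the isomerase of the isoprenoid building blocks, was the lowest at 0.31 RPKM. Both SREBP genes were well expressed, Srebf1 at 19.8 and Srebf2 at 8.83 RPKM. Of the efflux transporters, Abca1 was at 4.55 and Abcg1 at 1.04 RPKM.

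**Figure D1:**
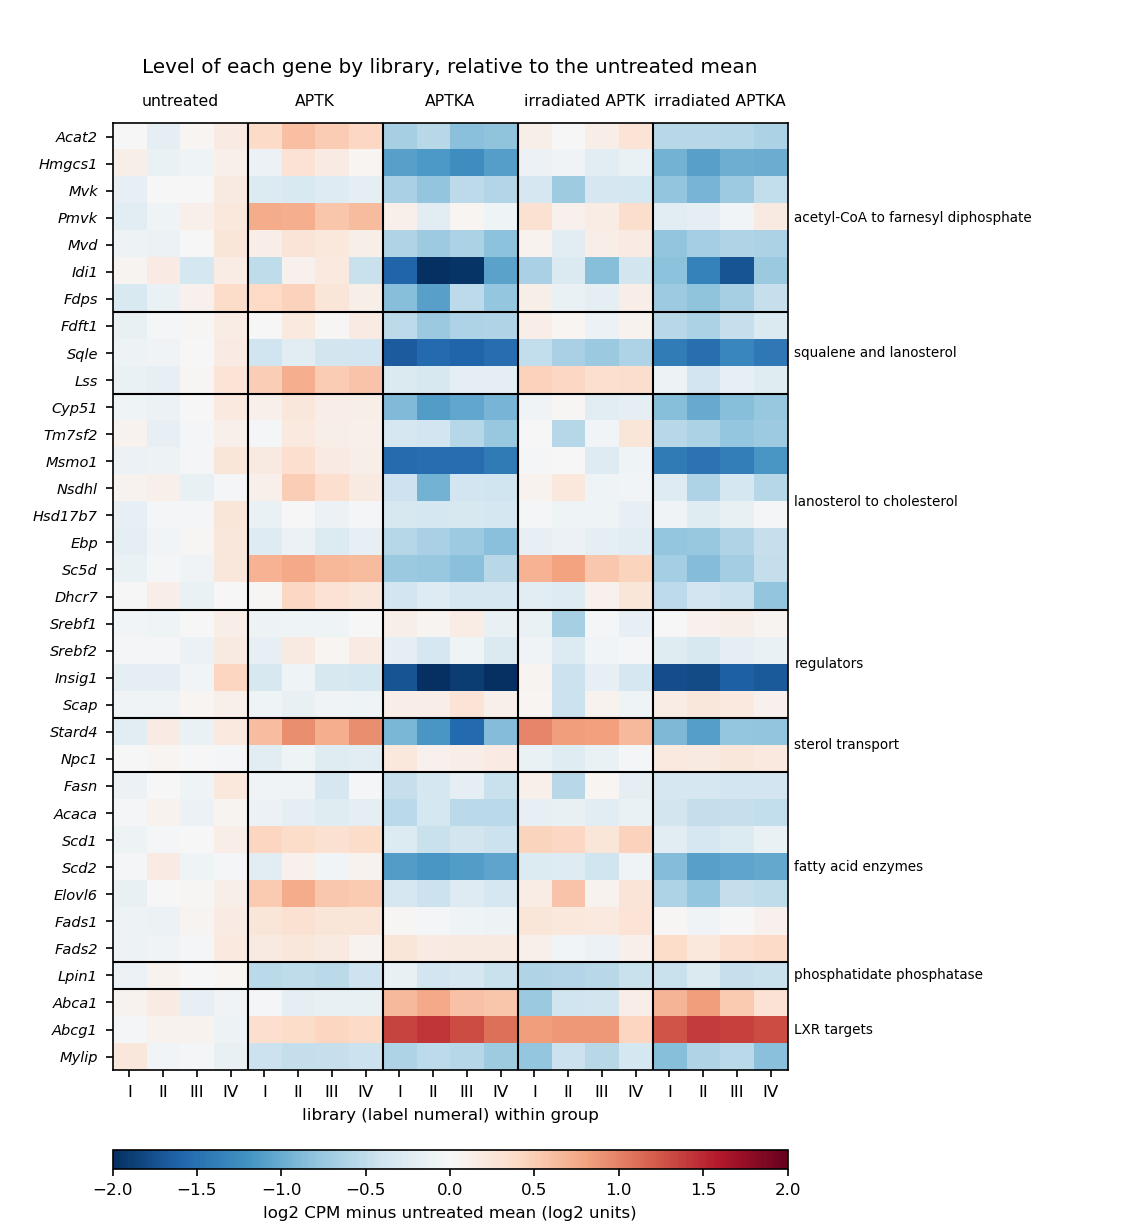
Level of each of the 35 genes (rows, ordered by role) in each of the 20 libraries (columns I to IV in each group), as log2 CPM minus the mean of the 4 untreated libraries; blue is lower and red is higher, and the colour scale ends at -2 and 2. Most sterol rows are blue in both APTKA groups, the Abca1 and Abcg1 rows are red there, and the Acat2, Pmvk, Lss, Sc5d and Stard4 rows are red with APTK medium.

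APTKA medium was compared first with untreated fibroblasts. Of the 35 members 27 were lower and 4 were higher, against 29.9% of all tested genes lower and 31.5% higher. Of the 18 sterol enzymes 17 fell, with a median log2 fold change of -0.70, where the median of all tested genes was 0.0031. Of the 7 fatty acid enzymes 5 fell and 1 rose, with a median of -0.36. Both efflux transporters rose. A fall or rise is a change with an adjusted p under 0.05 (edgeR's quasi-likelihood test, Benjamini-Hochberg over all tested genes), and log2 fold changes are given with their standard errors.

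At the start of the pathway, Hmgcs1 (chr13:119690379-119708260, mm10) was at 172, 146, 151 and 171 CPM in the untreated libraries and at 75.3, 71.8, 67.3 and 74 CPM with APTKA medium. The 2 groups did not overlap, and the fall was 2.22-fold (log2 -1.15 ± 0.07, adjusted p = 6.52e-14). Acat2, which joins acetyl-CoA units, fell from 14.5 ± 1.48 to 8.82 ± 0.823 CPM (mean ± SD, n = 4, as in what follows). The mevalonate enzymes Mvk and Mvd fell by similar log2 amounts, at -0.64 ± 0.09 and -0.70 ± 0.084, and Fdps, the farnesyl diphosphate synthase, was at -0.84 ± 0.14. Pmvk, the kinase between Mvk and Mvd, was the only sterol enzyme not past the threshold. Its 4 libraries read 7.96, 8.8, 10.0 and 10.8 CPM untreated and 10.1, 7.95, 9.57 and 8.82 CPM with APTKA medium, which overlap (log2 -0.047 ± 0.11, 95% interval -0.26 to 0.17). Idi1 had few reads, 1.12, 1.21, 0.82 and 1.2 CPM against 0.303, 0.14, 0.218 and 0.471 CPM, with no overlap (log2 -1.93 ± 0.31, adjusted p = 5.61e-06).

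The squalene epoxidase Sqle (chr15:59315077-59331192), an oxygen-dependent step that limits the rate of the late pathway, fell most among the well-counted enzymes. It was at 86, 88.1, 92.2 and 104 CPM untreated and at 29.2, 31.3, 30.2 and 32.1 CPM with APTKA medium, a 3.02-fold fall (log2 -1.59 ± 0.066, adjusted p = 1.80e-17). The untreated library IV was the highest of its group, and the lowest untreated library still stood far above every APTKA library. Fdft1, the squalene synthase, fell by less (log2 -0.63 ± 0.081). Lss, the lanosterol synthase, fell least of these 3 enzymes, from 35.8 ± 5.03 to 29.9 ± 1.38 CPM (log2 -0.26 ± 0.079), a call lost without untreated IV (-0.16, adjusted p = 0.0585).

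All 8 enzymes from lanosterol to cholesterol fell. Msmo1 (chr8:64718139-64733792), the oxidase that removes methyl groups from the sterol ring, was at 75.1, 75.3, 79.7 and 96.2 CPM untreated and at 27.8, 28.3, 28.3 and 30.5 CPM with APTKA medium. Its fall was 2.84-fold with no overlap (log2 -1.51 ± 0.079, adjusted p = 4.39e-15). Cyp51, the lanosterol demethylase, fell by 2-fold, from 97.9 ± 9.71 to 49.1 ± 3.55 CPM. Sc5d and Ebp, which place double bonds in the sterol ring, were at -0.73 ± 0.087 and -0.70 ± 0.087 on the log2 scale. Nsdhl, Tm7sf2 and Hsd17b7 fell by smaller amounts, at -0.53 ± 0.12, -0.51 ± 0.13 and -0.34 ± 0.066. Dhcr7, the reductase that makes cholesterol from its direct precursor, read 7.12, 7.72, 6.41 and 7.02 CPM untreated and 5.38, 5.89, 5.57 and 5.57 CPM with APTKA medium, a call lost without untreated II (-0.29, adjusted p = 0.0522).

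Among the regulators the largest fall was that of Insig1 (chr5:28071363-28078662), the sterol-sensing anchor of the SCAP and SREBP complex and itself a SREBP target. It was at 50.3, 50.7, 55.7 and 77.2 CPM untreated and at 17.3, 13.8, 15.4 and 13.3 CPM with APTKA medium. This 3.91-fold fall was the largest of all 35 members (log2 -1.97 ± 0.13, adjusted p = 4.03e-11), and untreated IV stood above the other 3 untreated libraries. The transcripts of the SREBPs moved little by comparison. Srebf2 read 62.4, 61.5, 58.2 and 71.6 CPM untreated and 55.1, 50.4, 59.3 and 51.9 CPM with APTKA medium, overlapping values with a small fall (log2 -0.23 ± 0.075) that was lost without untreated IV (-0.16, adjusted p = 0.0643). Srebf1, at 107, 105, 112 and 122 and 121, 115, 123 and 100.5 CPM, did not pass (log2 0.045 ± 0.088, adjusted p = 0.68). Scap, the escort, did not pass either (log2 0.16 ± 0.073, adjusted p = 0.057), although it passed without untreated IV (0.19, adjusted p = 0.0356). It also passed in edgeR with no filter on low counts (0.18, adjusted p = 0.00877) and with a replicate block (0.16, adjusted p = 0.047). With only the groups compared it passed too (0.17, adjusted p = 0.0107).

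The 2 sterol transport genes changed in opposite directions. Stard4, a carrier of cholesterol between membranes in the cytosol that is also induced by SREBPs, was at 15.4, 20.4, 16.4 and 20.8 CPM untreated and at 9.62, 8.02, 6.13 and 9.84 CPM with APTKA medium. That was a 2.16-fold fall without overlap (log2 -1.11 ± 0.13, adjusted p = 4.99e-08). Npc1, which exports cholesterol from lysosomes, rose slightly, from 117, 122, 117 and 116 CPM to 136, 125, 129 and 132 CPM (log2 0.15 ± 0.048, adjusted p = 0.00976).

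In fatty acid synthesis the fall was uneven. Scd2 (chr19:44293674-44306864) was at 504, 578, 487 and 508 CPM untreated and at 238, 232, 238 and 248 CPM with APTKA medium, a 2.17-fold fall (log2 -1.12 ± 0.072, adjusted p = 2.14e-13) with no overlap. Its neighbour Scd1, a desaturase with the same reaction, fell by 1.3-fold, from 94.3, 98.6, 102 and 111 to 84, 74.2, 78.8 and 75.3 CPM. Fasn (chr11:120805846-120824547), which builds palmitate, read 207, 225, 212 and 259.8 CPM untreated and 163, 177, 197 and 165 CPM with APTKA medium (log2 -0.36 ± 0.11, adjusted p = 0.00671). Acaca, the acetyl-CoA carboxylase that supplies Fasn, and Elovl6, the elongase of palmitate, were at -0.50 ± 0.062 and -0.35 ± 0.093. Of the desaturases of polyunsaturated fatty acids, Fads1 did not pass (-0.059 ± 0.055, adjusted p = 0.364). Fads2 rose slightly, from 41.9, 43.2, 44.4 and 51.6 to 53.4, 50.7, 50.9 and 51.3 CPM (log2 0.19 ± 0.064, adjusted p = 0.0134), with overlap, a call lost without untreated I (0.15, adjusted p = 0.0597). Lpin1, which makes diacylglycerol and also acts as a coregulator in the nucleus, fell from 41.5, 47.1, 44.8 and 46.3 to 40.3, 34.5, 35.5 and 32.9 CPM (log2 -0.32 ± 0.064).

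The efflux transporters moved against the synthesis genes. Abca1 (chr4:53030787-53159895), which loads cholesterol onto apolipoproteins, was at 49.2, 52.6, 42.1 and 44.6 CPM untreated and at 73.3, 79.3, 70.4 and 68.7 CPM with APTKA medium, a 1.55-fold rise (log2 0.63 ± 0.14, adjusted p = 5.21e-04). Abcg1 (chr17:31057675-31117988), which passes cholesterol to lipoproteins, rose 2.48-fold, from 7.36, 7.94, 7.89 and 7.06 CPM to 19.5, 20.4, 18.8 and 16.3 CPM (log2 1.31 ± 0.091, adjusted p = 1.10e-12). Neither pair of groups overlapped. Mylip, an LXR target like them, did not share their direction: it fell from 28.1, 23.2, 23.8 and 21.9 to 15.7, 16.8, 16.2 and 14.8 CPM (log2 -0.61 ± 0.088, adjusted p = 9.56e-07).

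**Figure D2:**
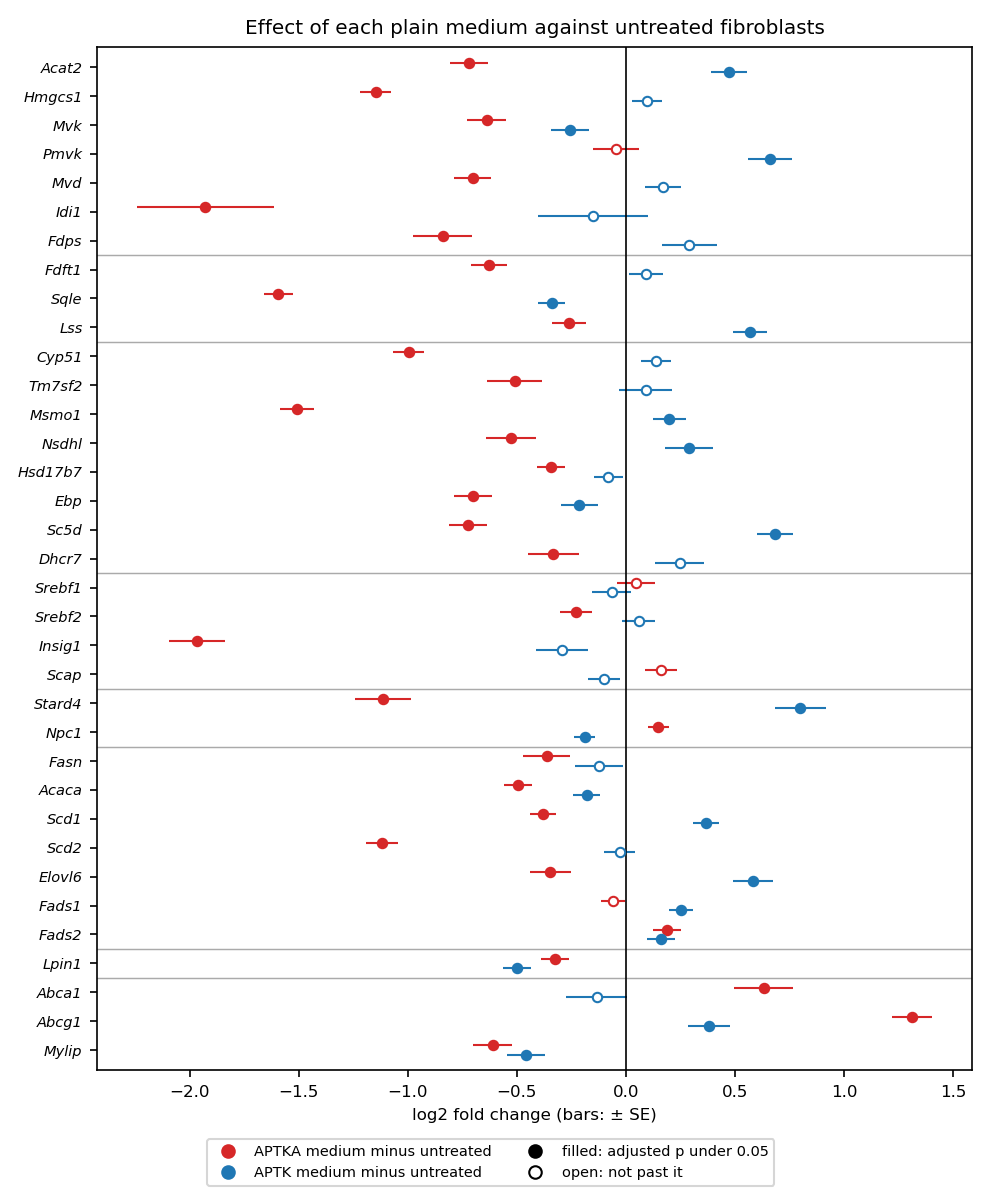
Log2 fold change of each gene (rows, ordered by role) with plain APTKA medium (red) and plain APTK medium (blue) against the same untreated libraries, with standard errors; filled points passed an adjusted p of 0.05. Red points of sterol enzymes lie left of 0, most of them filled, while blue points lie on both sides between -0.50 and 0.80.

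Other genes of these pathways were followed as a list of 65 chosen with earlier results known, 64 of which could be tested. With APTKA medium 17 rose and 34 fell, against 31.5% of all tested genes higher and 29.9% lower. The largest rise was that of Ch25h, the enzyme that makes 25-hydroxycholesterol, an oxysterol that retains SREBPs through INSIG and activates LXR. Ch25h was at 0.6, 1.64, 1.09 and 0.971 CPM in untreated libraries and at 7.67, 14.2, 14.6 and 12 CPM with APTKA medium, without overlap (log2 3.50 ± 0.23, adjusted p = 9.62e-12). The LXRα gene Nr1h3 and the LXR target Arl4c also rose (log2 1.35 ± 0.29 and 1.31 ± 0.07), Nr1h3 from a low level of 0.583 ± 0.172 CPM, and so did the elongase Elovl7 (1.41 ± 0.36, from 0.258 ± 0.029 CPM). Among the largest falls were Pltp, the phospholipid transfer protein (-1.87 ± 0.11), Lpl, the lipoprotein lipase (-1.82 ± 0.2), and Vldlr, a lipoprotein receptor (-1.75 ± 0.055). Pltp and Lpl are known LXR targets too, so known LXR targets changed in both directions.

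APTK medium did not give the same picture against the same untreated libraries. Of the 35 members 12 were higher and 7 lower, against 20.9% of all tested genes higher and 22.5% lower. Sterol enzymes were split, with 6 of 18 higher, 3 lower and a median of 0.15, and of the 7 fatty acid enzymes 4 rose and 1 fell, with a median of 0.16. No member changed by as much as 2-fold. Such changes were a small minority among all genes too, with 575 rises and 368 falls among the 14820 tested. With scaling by the upper quartile 16 members were higher and 5 lower.

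The largest rise with APTK medium was that of Stard4, to 27.7, 34.7, 30.1 and 34.6 CPM, all above the untreated range of 15.4 to 20.8 CPM (log2 0.80 ± 0.12, adjusted p = 5.51e-06). Sc5d rose from 39.8, 42.8, 41.3 and 50.8 CPM to 70.7, 73.5, 68.9 and 67.4 CPM (1.6-fold; log2 0.68 ± 0.084, adjusted p = 2.94e-07). Pmvk, which had not passed with APTKA medium, rose to 15.7, 15.5, 13.8 and 14.5 CPM (log2 0.66 ± 0.1). Lss and Acat2 rose by 0.57 ± 0.077 and 0.47 ± 0.083, and Nsdhl and Msmo1 by 0.29 ± 0.11 and 0.20 ± 0.075. The Msmo1 libraries, at 91.9, 103, 91.4 and 88.3 CPM, overlapped the untreated ones. Its call was lost without untreated I (0.16, adjusted p = 0.119), untreated II (0.16, adjusted p = 0.116), untreated III (0.19, adjusted p = 0.0785) or APTK II (0.15, adjusted p = 0.139). That of Nsdhl was lost without untreated III or IV, or APTK II or III (0.21 to 0.28, adjusted p from 0.0724 to 0.156).

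Other sterol enzymes were flat or lower with APTK medium. Hmgcs1 was at 147, 194, 179 and 163 CPM and did not pass (log2 0.095 ± 0.068, adjusted p = 0.274). Sqle fell to 70.1, 79.5, 71.8 and 70.8 CPM, below all untreated libraries (log2 -0.34 ± 0.063, adjusted p = 6.70e-05), and Mvk and Ebp were lower at -0.26 ± 0.089 and -0.21 ± 0.085. The Mvk call was lost without untreated IV (-0.19, adjusted p = 0.0939) or APTK II (-0.24, adjusted p = 0.053), and that of Ebp without untreated III or IV, or APTK I, III or IV (-0.23 to -0.13, adjusted p from 0.0568 to 0.216). The remaining 8, Mvd, Idi1, Fdps, Fdft1, Cyp51, Tm7sf2, Hsd17b7 and Dhcr7, did not pass, with log2 values between -0.15 and 0.29. Without untreated IV, Mvd, Fdps and Cyp51 passed as rises (0.25, 0.43 and 0.21), as did Fdps without APTK IV (0.35) and Dhcr7 without APTK I (0.31). None of the 4 regulators passed: Insig1 was at 46.1, 53.9, 45.8 and 45.2 CPM (log2 -0.29 ± 0.12, adjusted p = 0.0548), Srebf1 at 104, 105, 105 and 112 CPM and Srebf2 at 56.6, 71.9, 64.8 and 71 CPM. Insig1 passed as a fall without untreated I, untreated II or APTK II (each -0.36). With all libraries kept it also passed as a fall by DESeq2 (-0.304, adjusted p = 0.0259) and in edgeR with RLE scaling (-0.305, adjusted p = 0.0432). Npc1 fell to 101, 111, 100.1 and 102 CPM (log2 -0.19 ± 0.048).

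Of the fatty acid enzymes, Elovl6 rose from 19.1 ± 1.4 to 28.6 ± 2.25 CPM (log2 0.58 ± 0.09), Scd1 to 136, 131, 125 and 131 CPM (log2 0.37 ± 0.059), Fads1 by 0.25 ± 0.055 and Fads2 by 0.16 ± 0.064. Scd2, at 444, 552, 497 and 542 CPM, and Fasn, at 214, 215, 179 and 221 CPM, did not pass, and Acaca fell by a small amount (log2 -0.18 ± 0.062). The Fads2 call was lost without any 1 of untreated I to III and APTK I to III (0.12 to 0.15), and that of Acaca without untreated II (-0.16), untreated IV (-0.16) or APTK III (-0.16). Lpin1 fell to 31, 31.6, 30.7 and 33.7 CPM, the largest fall among the members in this comparison (log2 -0.50 ± 0.065, adjusted p = 4.61e-07). The efflux genes parted: Abcg1 rose to 9.56, 9.72, 10.2 and 9.85 CPM (log2 0.38 ± 0.095, adjusted p = 0.00193), while Abca1, at 45.7, 41.5, 42.1 and 42.3 CPM, did not pass (log2 -0.13 ± 0.14, adjusted p = 0.46). Mylip fell to 17.9, 17.3, 17.5 and 17.9 CPM (log2 -0.46 ± 0.088). In the wider list of 64 genes 13 rose and 20 fell, against 20.9% of all tested genes higher and 22.5% lower. They were led by the acetyl-CoA carboxylase Acacb (1.14 ± 0.14) and the sterol 27-hydroxylase Cyp27a1 (1.07 ± 0.12) upward and by Pltp (-0.91 ± 0.1) downward. Ch25h was at 1.23, 0.765, 0.695 and 0.721 CPM and did not pass (adjusted p = 0.472).

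**Figure D3:**
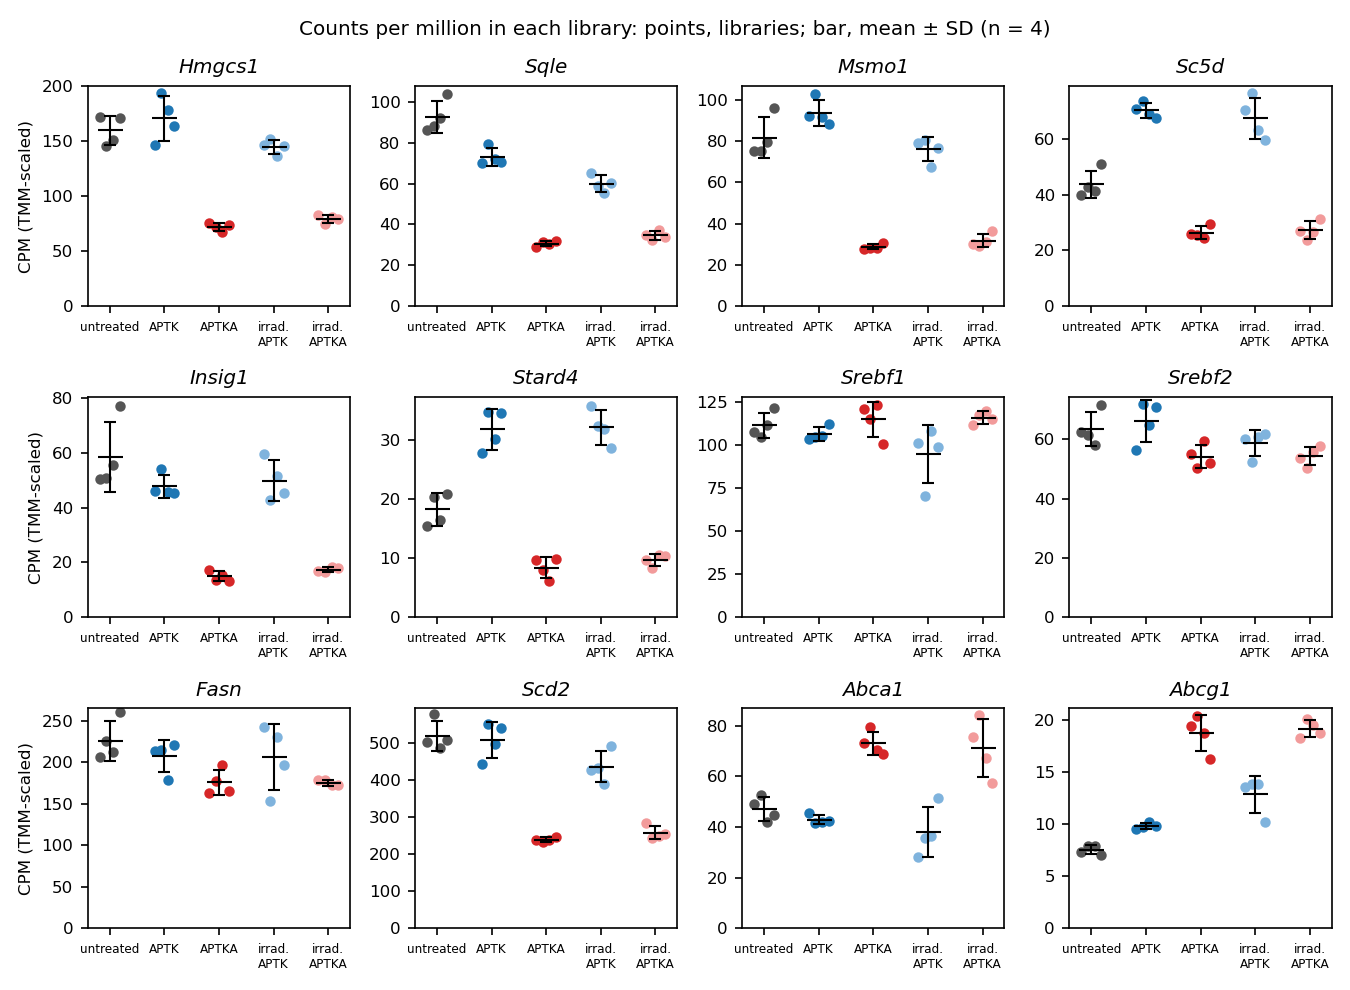
CPM of 12 genes in every library, one point per library, with the mean and SD of the 4 libraries of each group; each vertical axis starts at 0. Hmgcs1, Sqle, Msmo1, Sc5d, Insig1, Stard4 and Scd2 are lowest in the 2 APTKA groups, Abca1 and Abcg1 are highest there, and Srebf1 and Srebf2 differ little between groups.

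The 2 plain media were then compared directly, which asks what separates APTKA medium from APTK medium. Of the 35 members 26 were lower and 5 higher with APTKA medium, against 31.8% of all tested genes lower and 31.1% higher. All 18 sterol enzymes were lower, with a median of -0.85, and 8 of them by at least 2-fold. Of the 14820 tested genes 1139 were lower by at least 2-fold. Of the fatty acid enzymes 5 of 7 were lower, with a median of -0.31, and both efflux transporters were higher. The median of all tested genes was -0.026.

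The largest fall between the media was that of Stard4, 3.76-fold (log2 -1.91 ± 0.12, adjusted p = 2.70e-12), followed by Idi1 (-1.78 ± 0.32) and Msmo1, which was 3.26-fold lower (log2 -1.70 ± 0.079, adjusted p = 4.94e-16). Insig1, Sc5d, Sqle and Hmgcs1 were lower by 3.19, 2.65, 2.38 and 2.37-fold. Acat2, Cyp51 and Fdps were also lower by at least 2-fold (log2 -1.19 ± 0.086, -1.13 ± 0.07 and -1.13 ± 0.13). The other sterol enzymes, Mvk, Pmvk, Mvd, Fdft1, Lss, Tm7sf2, Nsdhl, Hsd17b7, Ebp and Dhcr7, lay between -0.87 and -0.26. Hsd17b7 was the least changed of them (adjusted p = 0.00105).

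Between the media Scd2 was 2.13-fold lower, Elovl6 1.9-fold and Scd1 1.68-fold, and Fads1 and Acaca were lower (log2 -0.31 ± 0.055 and -0.31 ± 0.063). Fasn did not pass (log2 -0.24 ± 0.11, adjusted p = 0.062), and Fads2 did not either (0.028 ± 0.064). Fasn passed as lower without APTK III (-0.30, adjusted p = 0.0234) or APTKA III (-0.30, adjusted p = 0.0329). With all libraries of the 2 groups kept it also passed by DESeq2 (-0.24, adjusted p = 0.0399). In edgeR it passed with upper quartile scaling (-0.31, adjusted p = 0.0175) and with only the groups compared (-0.24, adjusted p = 0.0148). Abcg1 was 1.91-fold higher (log2 0.93 ± 0.089, adjusted p = 6.21e-10), Abca1 was 1.7-fold higher (log2 0.77 ± 0.14, adjusted p = 7.77e-05), and Npc1 and Scap were higher by 0.34 ± 0.048 and 0.26 ± 0.073. Lpin1 was higher by 0.18 ± 0.065, a call lost without APTKA I (0.11, adjusted p = 0.13) or APTK III (0.16, adjusted p = 0.0558). Srebf2 was lower (log2 -0.29 ± 0.075), and Srebf1 and Mylip did not pass. Mylip passed as lower with upper quartile scaling (-0.22) and with only the groups compared (-0.15). Of the 64 genes of the wider list 14 were higher and 32 lower, against 31.1% of all tested genes higher and 31.8% lower. Ch25h (log2 3.82 ± 0.24) led upward, and Lpl (-1.54 ± 0.21), Vldlr (-1.47 ± 0.055) and Acacb (-1.22 ± 0.14) were among the largest falls.

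The class means by library show the contrast of the classes without any single gene. Taken as the mean log2 CPM of the class minus its untreated mean, the 18 sterol enzymes lay between -0.862 and -0.724 in the 4 APTKA libraries, and the 7 fatty acid enzymes between -0.392 and -0.341. Every APTKA library was thus lower in the sterol class than any was in the fatty acid class. The 2 efflux genes lay between 0.826 and 1.09 in the same libraries. With APTK medium the sterol class lay between 0.0859 and 0.284 and the fatty acid class between 0.0889 and 0.213. These ranges overlap. Untreated IV was the highest untreated library in both synthesis classes, at 0.176 and 0.12.

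**Figure D4:**
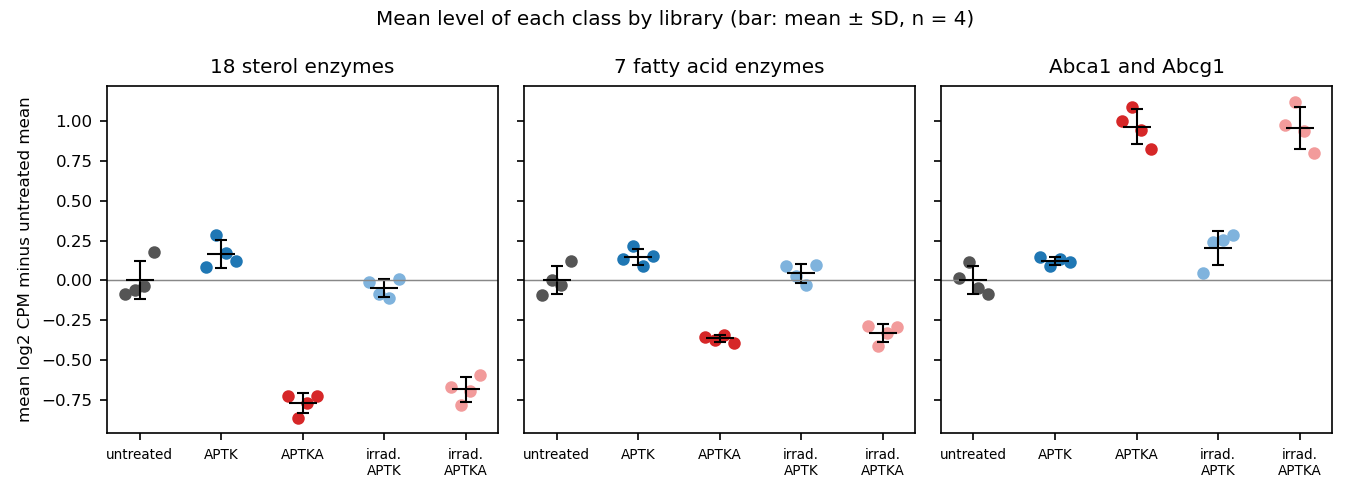
Mean log2 CPM of each class minus its untreated mean (vertical axis, log2 units), one point per library, with the mean and SD of each group of 4. Sterol enzymes lie between -0.862 and -0.597 in the 2 APTKA groups, fatty acid enzymes between -0.409 and -0.286, and the 2 efflux genes between 0.798 and 1.12.

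Irradiated and plain media of the same organoids were compared next, which asks what the irradiated arm changed. In APTKA medium none of the 35 members passed edgeR's test, against 0.452% of all tested genes higher and 0.277% lower. DESeq2 also called none. In edgeR 4 members had an unadjusted p under 0.05, as did 1861 of all 14820 tested genes, a similar share. Sterol enzymes had small positive differences, 14 of 18 above 0 with a median of 0.10. Among all 14820 tested genes 7646 lay above 0, with a median of 0.0044. Sqle was at 34.9, 32.4, 37.3 and 34.1 CPM with irradiated APTKA medium, just above the plain APTKA libraries (log2 0.18 ± 0.067, adjusted p = 0.245), and Hsd17b7 differed by 0.21 ± 0.066 (adjusted p = 0.141). Insig1, at 16.8, 16.6, 18.4 and 17.9 CPM, and Abca1, at 75.6, 84.1, 67.4 and 57.3 CPM, overlapped the plain libraries. So did Abcg1, at 18.3, 20.1, 19.5 and 18.8 CPM, and Stard4, at 9.65, 8.36, 10.6 and 10.4 CPM. In the wider list Acsl4, an acyl-CoA synthetase, was higher (0.30 ± 0.055) and no other gene passed.

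In APTK medium 5 members were lower and 1 was higher in the irradiated arm, against 0.837% of all tested genes lower and 0.547% higher. All 5 were sterol enzymes: Acat2, Pmvk, Sqle, Cyp51 and Msmo1. Of the 18 sterol enzymes 17 lay below 0, with a median of -0.24 where all tested genes had 0.0036. Among all 14820 tested genes 7252 lay below 0. None of the 7 fatty acid enzymes passed, and their median was -0.029, with 5 below 0 and 2 above. Elovl6 was nonetheless as low as some called sterol enzymes (log2 -0.32, adjusted p = 0.0754). It passed by DESeq2 (-0.31, adjusted p = 0.0362), with no filter on low counts, and without irradiated APTK II (-0.43) or irradiated APTK IV (-0.31). Scd2 (-0.22, adjusted p = 0.118) passed with no filter, and without APTK I (-0.28) or irradiated APTK IV (-0.28). The 1 member that rose was Abcg1.

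Pmvk was at 11.5, 9.92, 10.3 and 11.9 CPM with irradiated APTK medium, below the plain APTK range of 13.8 to 15.7 CPM (log2 -0.44 ± 0.1, adjusted p = 0.0273). Sqle was at 65.2, 58.9, 55.3 and 60.3 CPM, below all plain APTK libraries (log2 -0.29 ± 0.064, adjusted p = 0.0211). Msmo1, at 79, 80.7, 67.7 and 76.7 CPM, and Acat2, at 15.7, 14.6, 15.9 and 17.6 CPM, were lower (log2 -0.30 ± 0.075 and -0.34 ± 0.083). Cyp51 was near the threshold (log2 -0.26 ± 0.068, adjusted p = 0.0493). Hmgcs1, at 146, 152, 136 and 145 CPM, did not pass (log2 -0.24 ± 0.068, adjusted p = 0.0807).

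Abcg1 rose from 9.56, 9.72, 10.2 and 9.85 CPM with plain APTK medium to 13.6, 13.9, 13.9 and 10.2 CPM in the irradiated arm (log2 0.38 ± 0.092, adjusted p = 0.0332), where library IV stood below the other 3. Abca1 did not pass, and its 4 irradiated libraries were spread from 28.0 to 51.5 CPM. Stard4, at 35.8, 32.3, 31.9 and 28.6 CPM, overlapped plain APTK medium (log2 0.014 ± 0.11, 95% interval -0.22 to 0.25). Fasn, at 242, 153, 230.4 and 197 CPM, and Srebf1, at 102, 70.4, 108 and 99.1 CPM, were lowest in library II, the library with the lowest total. In the wider list 2 of 64 genes fell, 1 of them a sterol gene and the other Gpam, a glycerol-3-phosphate acyltransferase (-0.20 ± 0.053, adjusted p = 0.0465). The number of calls in this comparison varied between settings, for the members and for all genes alike, against 6 members and 205 of all genes as reported. A fit of these 2 groups alone, which leaves out no library, called 0 members and 10 genes. Of the members, 0 were called without APTK II, APTK III or irradiated APTK III (59, 32 and 47 of all genes), and 1 without APTK IV or irradiated APTK I (72 and 33 of all genes). Without irradiated APTK II 3 members and 122 genes were called, without APTK I 4 and 198, and without irradiated APTK IV 9 and 1271. The called members changed as well. Without irradiated APTK II only Sqle and Cyp51 were kept, with Elovl6 gained. Leaving out APTK I kept only Acat2 and Sqle, with Hmgcs1 and Scd2 gained. When 1 library was left out, the Pmvk and Abcg1 calls were kept only if it was irradiated APTK IV. Without both of the smallest libraries, irradiated APTK I and II, 2 members and 27 genes were called, a setting chosen after the data were seen. The sizes moved less than the calls: over the 15 alternatives the log2 difference lay between -0.49 and -0.41 for Pmvk, -0.34 and -0.24 for Sqle, -0.38 and -0.25 for Msmo1 and 0.29 and 0.49 for Abcg1.

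**Figure D5:**
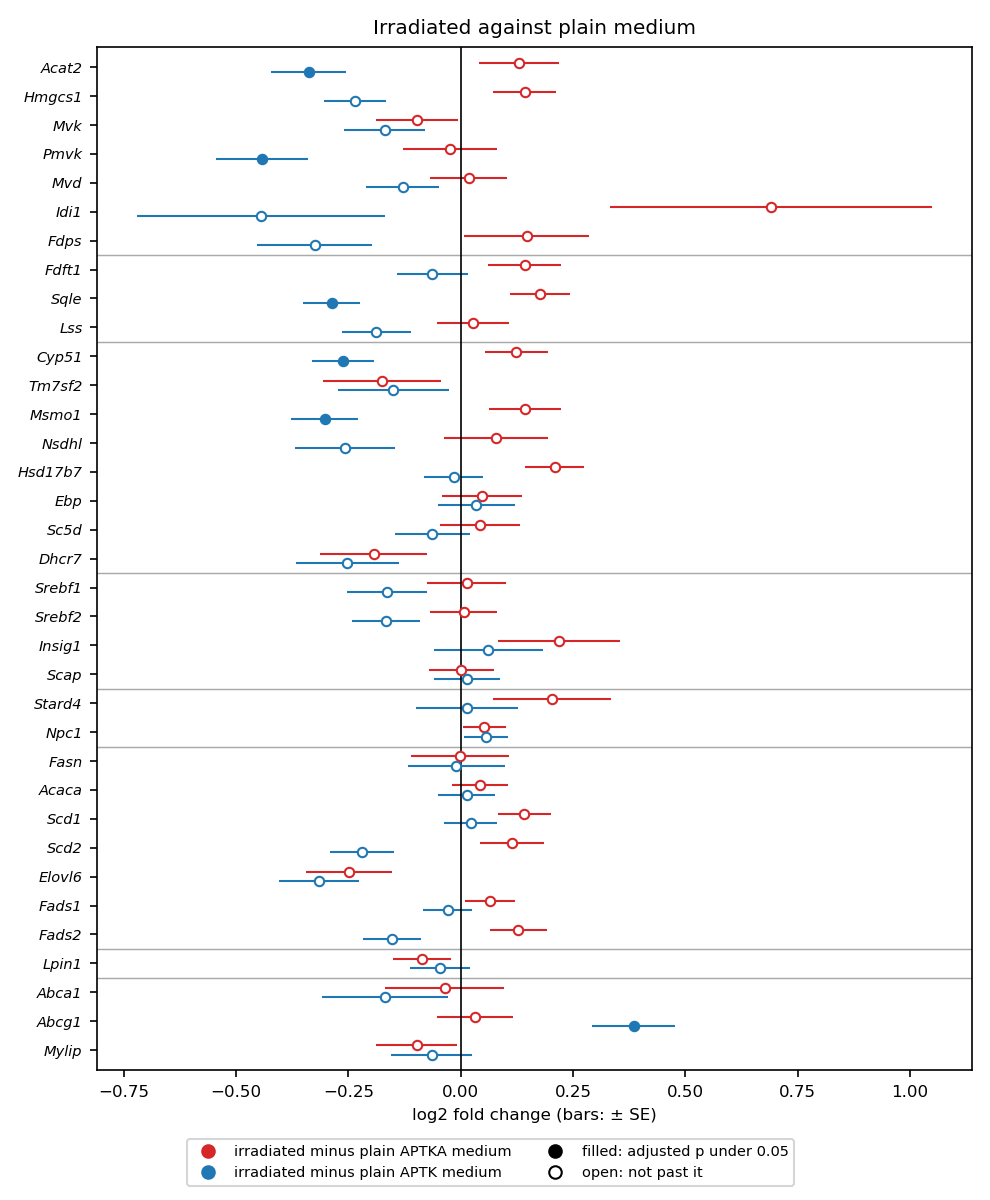
Log2 fold change of the irradiated arm against plain medium for each gene (rows, ordered by role), in APTKA medium (red) and APTK medium (blue), with standard errors; filled points passed an adjusted p of 0.05. The 6 filled points, Acat2, Pmvk, Sqle, Cyp51, Msmo1 and Abcg1, are all in APTK medium, and no red point is filled.

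A test of the difference between the 2 irradiation effects called 1 member, against 0.182% of all tested genes in either direction. For Sqle the effect was higher in APTKA medium by 0.46 ± 0.092 on the log2 scale (adjusted p = 0.0249), a call lost without any 1 of the APTKA libraries, without APTK II or IV, without irradiated APTKA I or III, and without irradiated APTK III (0.42 to 0.48, adjusted p from 0.0527 to 0.0833). Msmo1, Cyp51, Hmgcs1 and Acat2 did not pass, at 0.45 ± 0.11, 0.39 ± 0.098, 0.38 ± 0.098 and 0.47 ± 0.12 (adjusted p from 0.103 to 0.123), though DESeq2 called these 4 beside Sqle. Some passed in edgeR when 1 library was left out: Acat2 (0.52), Msmo1 (0.45), Scd2 (0.40) and Abcg1 (-0.45) without irradiated APTK IV, Cyp51 (0.44) without irradiated APTK II, and Hmgcs1 (0.44) without APTK I. Of all genes 27 passed as reported, 307 without irradiated APTK IV and 114 by DESeq2. Of the 18 sterol enzymes 17 had a positive difference, with a median of 0.28, and so did all 7 fatty acid enzymes, with a median of 0.094. Among all 14820 tested genes 7366 had a positive difference, with a median of -0.00093. For Pmvk and Abcg1 the difference did not pass (0.42 ± 0.15 and -0.35 ± 0.12, adjusted p = 0.305 and 0.312).

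The 2 irradiated media were compared with each other in libraries that the comparison of plain media did not use. Of the 35 members 23 were lower and 6 higher with irradiated APTKA medium, against 31.2% of all tested genes lower and 30.1% higher. Of the sterol enzymes 16 of 18 were lower, with a median of -0.63, and Idi1 and Hsd17b7 did not pass. Idi1 passed without irradiated APTKA IV (-0.80, adjusted p = 0.0457), and the Pmvk call (-0.29 ± 0.1) was lost without irradiated APTK I or IV, or irradiated APTKA I or II (-0.26 to -0.24, adjusted p from 0.0518 to 0.0728). Of the fatty acid enzymes 5 were lower and Fads2 was higher (0.31 ± 0.064), with a median of -0.28. All 23 members lower here were among the 26 lower between the plain media (88.5% of those 26), and 4 of the 5 members higher between the plain media were higher here. Among all tested genes 82.6% of those lower between plain media were lower here too, and 86.5% of those higher were higher here too, so the members' shares (88.5% and 80%) lay near those of all genes. The size of the difference was smaller between the irradiated media for 30 of the 35 members (85.7%), against 53.8% of all tested genes. This change of the media's difference between arms is the same contrast as the difference of the 2 irradiation effects above. It is not a separate result.

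Stard4 was 3.3-fold lower with irradiated APTKA than with irradiated APTK medium (log2 -1.72 ± 0.12, adjusted p = 1.68e-11), and Insig1 2.86-fold (log2 -1.52 ± 0.13, adjusted p = 2.40e-09). Sc5d read 70.2, 76.3, 63.2 and 59.5 CPM with irradiated APTK and 27.1, 23.8, 26.7 and 31.4 CPM with irradiated APTKA medium (2.47-fold lower; log2 -1.30 ± 0.087). Msmo1, at 30.4, 29.1, 31.2 and 36.2 CPM in irradiated APTKA libraries, was 2.39-fold lower, and Hmgcs1, at 83, 74.7, 81 and 79.8 CPM, was 1.82-fold lower. Sqle was lower too (log2 -0.79 ± 0.065). Scd2, at 429, 435, 391 and 494 CPM against 285, 244, 250.4 and 256 CPM, was 1.69-fold lower.

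Abca1 and Abcg1 were higher by 0.90 ± 0.14 and 0.58 ± 0.088 (adjusted p = 1.62e-05 and 2.12e-06), and Npc1 by 0.33 ± 0.048. Srebf1, at 102, 70.4, 108 and 99.1 CPM against 112, 118, 120.2 and 115 CPM, was higher by 0.29 ± 0.089, and Scap by 0.25 ± 0.073. Srebf2, Fasn, Lpin1 and Mylip did not pass, although Fasn did without irradiated APTK II (-0.33), Lpin1 without irradiated APTK IV (0.17) and Mylip without irradiated APTK I (-0.25) or irradiated APTKA III (-0.24). With upper quartile scaling Srebf2, Fasn and Mylip passed as lower (-0.19, -0.30 and -0.26). Lpin1 passed as higher with no filter on low counts (0.17). In the wider list 16 of 64 genes were higher and 30 lower, against 30.1% of all tested genes higher and 31.2% lower. Ch25h was at 1.26, 1.15, 1.26 and 0.859 CPM with irradiated APTK and 10.9, 11.7, 11.8 and 8.06 CPM with irradiated APTKA medium (log2 3.23 ± 0.24), and the lipase gene Lpl was lower (log2 -1.57 ± 0.21).

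Some of these values rest on sequence that members share with other genes. The share of a gene's 50-base words found in another annotated gene was 39.1% for Acat2 (all with Acat3), 30.4% for Acaca, 26.5% for Fdft1, 26.2% for Fdps, 25.3% for Idi1 and 11.6% for Hmgcs1. How reads with several matches were treated is not given in the sources used here, so the levels of these genes are uncertain. In addition 10 members share exon bases with another annotated gene, 7 of them with one on the opposite strand, such as Fdft1 with Ctsb (774 bases) and Scap with 5830462I19Rik (985 bases). Without a stated strand setting, reads in those bases cannot be told apart.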

How the data were processed

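The submitters' processing notes list the build mm10 and, as tools, featureCounts 1.5.0-p1, STAR 2.5.2a and bcl2fastq 2.20.0.422. They give no strand setting or annotation release. The authors deposited whole-number read counts per gene and library, not normalised. Symbols were matched for 47224 of 47729 identifiers. Counts were tested in R 4.3.3 with edgeR 4.0.16 (quasi-likelihood, robust, TMM scaling, default filter by group) in 1 fit of 5 group means over 20 libraries (residual degrees of freedom: 15). Benjamini-Hochberg adjustment ran over the 14820 genes left, at 5%. CPM used TMM-scaled totals, except for the cell type markers, whose totals were unscaled. RPKM used the exon union of GENCODE's mm10 annotation, and class means log2 CPM with a prior count of 2. The SE was taken as the size of a log2 fold change divided by the root of its F statistic. The members, gene lists and tests were chosen with earlier results of these data known. Values by library are given for 17 members fixed by name and the 3 largest rises and falls called in each comparison, and from the wider list examples among the largest changes. All pairs of libraries within a group differed by more than sampling noise (chi-square over its degrees of freedom, 4.8 to 88.4). Alternatives were RLE and upper quartile scaling, no filter, a replicate block, only the groups compared, DESeq2 1.42.0 and leaving out each library.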

Additional observations from a re-analysis of the deposited data

Results flagged for a closer look

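Within the groups of 4, the highest or lowest library stood apart from the other 3 (Dixon's test at the 95% level) in 14 of 175 pairs of a member and a group, where chance gives about 5%. In APTK II, 4 members were high: Cyp51 (114 CPM, others 105 to 106), Insig1 (53.9, others 45.2 to 46.1), Elovl6 (32, others 27.3 to 27.7) and Fads1 (152, others near 145). In irradiated APTK II, 2 were low: Mvk (18.8, others 24.1 to 24.5) and Srebf2 (52.4, others 60.2 to 61.8). APTKA II was low in Nsdhl (6.87, others 9.99 to 10.2) and high in Acaca (22.3, others 19.5 to 19.6). Fasn was low in APTK III (179, others 214 to 221) and Srebf1 high in APTK IV (112, others 104 to 105). Npc1 was high in untreated II (122, others 116 to 117) and Lpin1 in irradiated APTKA II (36.8, others 32.7 to 32.8). Acat2 was low in irradiated APTKA IV (9.31, others 9.77 to 9.81), as was Abcg1 in irradiated APTK IV (10.2, others 13.6 to 13.9). Sqle was flagged because its irradiation effect differed between the 2 media, by 0.464 on the log2 scale.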

How the results depend on the processing

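Members called with APTKA medium against untreated numbered 30 to 32 under every alternative (31 as reported), between the plain media 30 to 33 (31), between the irradiated media 28 to 33 (29) and with APTK medium against untreated 15 to 21 (19). No called member turned its direction in any alternative. For irradiated against plain APTKA medium (0 as reported), 1 member, Hsd17b7, was called with no filter on low counts and 1 with only the groups compared, and 0 when any library was left out. For irradiated against plain APTK medium (6), 0 were called with only the groups compared, 2 without the 2 smallest libraries (chosen after seeing the data) and 0 to 9 when 1 library was left out; of all genes, 10, 27 and 32 to 1271 were called, against 205. When the 2 irradiation effects were compared (1), 6 were called with no filter, 5 by DESeq2, 2 without the 2 smallest libraries and 0 to 5 when 1 library was left out; of all genes, 209, 114, 31 and 4 to 307, against 27. The cause was not tested. Deviations of libraries with the same replicate number in the labels correlated at -0.108 to 0.0959 (median 0.00468), none of 40 pairs over 0.1. Such correlations cannot show whether same-numbered libraries shared a culture, day or animal, which the labels do not state. With the replicate number as a block, 32, 18, 31, 0, 4, 1 and 29 members were called, in the report's order of comparisons. Idi1, with at most 1.24 CPM in every library, is the member whose depth limits its values most.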
